A study of Mus musculus with 12 samples.

Results

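Cyclic nucleotide phosphodiesterases (Pde genes) were followed across WT and Coro1a-deficient T cells, choosing 9 members by symbol: Pde1b, Pde2a, Pde3b, Pde4a, Pde4b, Pde4d, Pde5a, Pde7a and Pde8a. Of these, 8 had a row among the 45706 genes counted, and all 8 passed the filter on low counts that left 15922 genes tested. Pde2a (ENSMUSG00000110195) had no row. A row for Gm45837 (ENSMUSG00000030653) covers most of the same place, and its values are given beside the members without being counted as one. The data are messenger RNA counts from mouse T cells in 4 groups of 3 libraries: WT conventional (WT_con), Coro1-/- conventional (KO_con), WT regulatory (WT_Trg) and Coro1-/- regulatory (KO_Trg). Coro1a, the gene knocked out, encodes coronin 1, an actin-binding protein of blood cells. Age, organ, sort gate and the construction of the Coro1-/- allele are not given in the sources used here. The labels do not say whether the 3 libraries of a group come from 3 animals, and a p-value here therefore covers only the spread among libraries, which may be technical. In each conventional group the libraries differ in Xist and Y-linked reads (given below), so they do not all come from a single animal.

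Phosphodiesterases end cyclic nucleotide signals by hydrolysing cAMP, cGMP or both. In T cells, cAMP made in response to prostaglandin E2, adenosine or beta-adrenergic agonists restrains activation through protein kinase A, and phosphodiesterases recruited to the T cell receptor lower it again. PDE4, PDE7 and PDE8 enzymes are specific for cAMP. PDE3 enzymes hydrolyse cAMP and are inhibited by cGMP, PDE2 is stimulated by cGMP, PDE1 enzymes are activated by calcium and calmodulin, and PDE5 is specific for cGMP. Regulatory T cells are known to hold high cAMP, and Pde3b is known as a gene repressed by their transcription factor Foxp3.

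Pde3b (chromosome 7, 114415281 to 114539251), Pde8a (chromosome 7, 81213596 to 81334533) and the Gm45837 row (chromosome 7, 101410886 to 101512819) lie on the chromosome of Coro1a, with their ends 12.2, 45.4 and 25.2 Mb before its start (GRCm38, GENCODE M21). Of the 4139 exon bases of Gm45837, 95.6% lie in exons of Pde2a (chromosome 7, 101421691 to 101512827, same strand), and they cover 64.3% of the 6149 exon bases of Pde2a. The annotation used for counting is not known, and Pde2a had no row of its own. The Gm45837 row may therefore hold the reads of the Pde2a locus, and the 2 annotations cannot be told apart here. Pde4a lies on chromosome 9 (21165714 to 21213248), Pde4b on chromosome 4 (102087543 to 102607259), Pde4d on chromosome 13 (108449948 to 109953461) and Pde1b on chromosome 15 (103503034 to 103530052). Pde5a (122728947 to 122859374) and Pde7a (19223108 to 19311322) lie on chromosome 3, and Pde7a is the only member on the minus strand.

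Promoter windows of RefSeq (GRCm38.p6, 250 bases before a start) were found for 7 of the 9 members, in 18 windows. They were searched on both strands for the cAMP response element TGACGTCA, its shorter form TGACG (every full element holds the shorter one), the AP-1 site TGANTCA, the GC box GGGCGG, the NFAT core GGAAA and TATAAA. The full cAMP response element and the AP-1 site matched 0 of the 18 windows, against 1.55% and 6.75% of 32851 windows of all genes. The shorter form matched 3 windows, 1 each of Pde4a, Pde4b and Pde8a, against 17.8% of all windows. The windows of Pde4a and Pde8a are shown because these genes carry the same match while, in KO conventional libraries, Pde4a was called higher and Pde8a was not called; capitals mark TGACG or, on the other strand, CGTCA. A match is a description of letters, not a site of binding.
Pde4a, second of 3 starts, chr9:21183851-21184100, plus strand: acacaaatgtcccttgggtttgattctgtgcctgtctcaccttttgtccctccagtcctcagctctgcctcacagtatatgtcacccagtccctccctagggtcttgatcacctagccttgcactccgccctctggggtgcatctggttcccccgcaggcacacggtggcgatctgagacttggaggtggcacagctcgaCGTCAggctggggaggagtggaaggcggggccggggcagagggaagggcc
Pde8a, chr7:81213015-81213264, plus strand: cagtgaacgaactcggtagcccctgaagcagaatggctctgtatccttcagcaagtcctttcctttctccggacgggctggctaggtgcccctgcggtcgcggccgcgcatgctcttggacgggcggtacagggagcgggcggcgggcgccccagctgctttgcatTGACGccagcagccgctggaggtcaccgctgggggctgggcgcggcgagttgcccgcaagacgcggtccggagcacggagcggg

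The labels were checked on Coro1a and on marker genes, all in CPM, the share of a library's gene counts scaled by the trimmed mean of M values (TMM). Coro1a ranged from 2124 to 2712 CPM in the 6 WT libraries and from 20.9 to 47.3 CPM in the 6 KO libraries. The 10 regulatory T cell markers, Foxp3 among them, summed to 2390 to 3384 CPM in regulatory, 376 to 449 in WT conventional and 482 to 799 CPM in KO conventional libraries. The regulatory libraries also held RNA of other cells: 12 B cell markers summed to 4123 to 5710 CPM, against between 11.0 and 16.8 in WT and 52.5 to 89.7 in KO conventional libraries. For 8 erythroid markers the sums were 5187 to 9546 CPM against 7.17 to 83.8. Conventional replicates 1 and 2 held Xist reads and replicate 3 Y-linked reads in both genotypes. WT regulatory replicate 3 and KO regulatory replicate 1 held both, and the other regulatory libraries held Y-linked reads. In CPM without TMM scaling, Xist was at 754 and 570 and Y-linked genes at 19.9 and 60.6 in the 2 libraries holding both. These 2 libraries also had the highest B cell sums, 5710 and 5552 CPM. In such bulk samples, fewer cells of a type and less RNA per cell cannot be told apart.

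Among the cAMP-specific enzymes, Pde4a, Pde4b and Pde4d differed in level and in pattern. Pde4a, a PDE4 gene with several transcription starts, was the lowest of them per kb of exon. Its level was 1.24, 0.750 and 1.12 CPM in WT conventional replicates 1 to 3 and 5.85, 4.55 and 6.69 CPM in KO conventional ones. WT regulatory libraries were at 9.31, 8.40 and 14.0 CPM, and KO regulatory libraries at 19.8, 12.4 and 14.7 CPM. The 3 groups above WT conventional did not overlap with it, while the regulatory groups overlapped with each other. The highest regulatory value of each genotype came from the library holding both Xist and Y-linked reads. Lack of overlap was common over all genes tested. Between conventional genotypes 63.6% did not overlap (members: 2 higher, 3 lower), and between regulatory genotypes 26.2% (members: 1 higher). Between the cell types it was 75.3% in WT and 72.7% in KO (members: 2 higher and 5 lower in each). These counts, of 8 members, do not set the members apart.

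Pde4b, which encodes the PDE4 enzyme tied to T cell receptor signalling, was more evenly spread. It was at 168, 167 and 159.8 CPM in WT conventional and at 139, 138 and 121 CPM in KO conventional libraries. WT regulatory libraries were at 102, 105 and 115 CPM, and KO regulatory ones at 111, 115 and 107 CPM. WT conventional libraries lay above all others, and the regulatory groups overlapped. Pde4d, another PDE4 gene, separated the cell types: it lay between 75.7 and 98.2 CPM in the 6 conventional and between 21.9 and 28.9 CPM in the 6 regulatory libraries, with both genotypes overlapping within a cell type.

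Pde7a encodes a high-affinity cAMP enzyme induced on T cell activation. Its level was 142, 128 and 158 CPM in WT conventional and 155, 164 and 146 CPM in KO conventional libraries, against 86.5, 106 and 116 CPM for WT regulatory and 97.8, 90.5 and 95.1 CPM for KO regulatory ones. Conventional libraries were higher than regulatory ones, and genotypes overlapped. Pde8a, a high-affinity cAMP enzyme insensitive to the common inhibitor IBMX, differed least of the 8 members between its highest and lowest group means (1.33 times). It spanned 14.0 to 19.0 CPM in WT conventional, 14.3 to 16.4 in KO conventional, 16.0 to 18.4 in WT regulatory and 16.5 to 25.5 in KO regulatory libraries, so that every group overlapped with its neighbour in the order of means.

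Pde3b, the cGMP-inhibited cAMP enzyme, had the widest gap in CPM between the cell types. Its level was 316, 317 and 268 CPM in WT conventional and 264, 240 and 196 CPM in KO conventional libraries. WT regulatory libraries were at 30.0, 37.5 and 27.7 CPM, and KO regulatory libraries at 30.5, 43.0 and 44.9 CPM. Every conventional library lay more than 4 times above every regulatory one, and KO conventional libraries lay just below the WT ones without overlap.

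Of the enzymes acting on cGMP or on both nucleotides, Pde1b was at 48.9, 43.4 and 46.1 CPM in WT conventional libraries. It was at 35.8, 36.0 and 35.4 CPM in KO conventional ones, and spanned 19.2 to 30.5 CPM in WT and 17.6 to 24.8 CPM in KO regulatory ones. KO conventional libraries lay below WT ones and above both regulatory groups, which overlapped. The Gm45837 row at the Pde2a locus spanned 125 to 178 CPM in WT conventional, 146 to 154 in KO conventional, 138 to 159 in WT regulatory and 125 to 138 in KO regulatory libraries. Its group means differed by no more than 1.18 times.

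Pde5a, the cGMP-specific enzyme, was low in WT cells and higher in KO cells of both types. It was at 1.61, 1.70 and 2.31 CPM in WT conventional libraries and at 9.53, 7.61 and 7.96 CPM in KO conventional ones. WT regulatory libraries were at 3.36, 2.84 and 4.12 CPM, and KO regulatory ones at 6.91, 7.95 and 7.99 CPM. All 6 KO libraries lay above all 6 WT libraries, and the 2 KO groups overlapped. The counts behind these levels summed over 3 libraries to 172 in WT conventional, 872 in KO conventional, 278 in WT regulatory and 747 in KO regulatory cells.

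**Figure D1:**
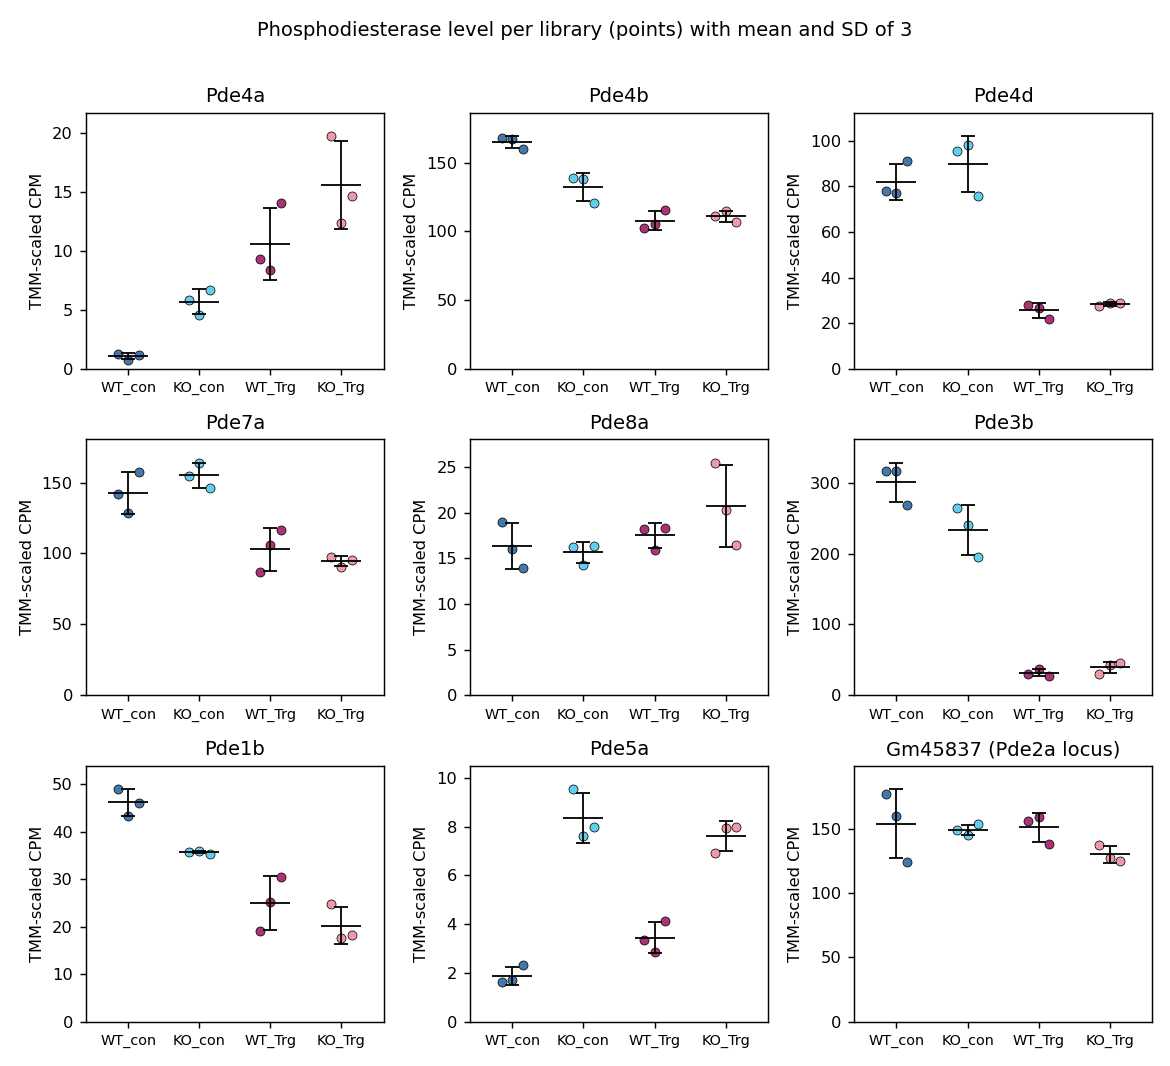
TMM-scaled CPM (vertical axes, linear from 0) of the 8 members and of the Gm45837 row in each of the 12 libraries, with the mean and SD of 3 libraries per group. Pde5a is at 6.91 CPM or more in the 6 KO and at 4.12 CPM or less in the 6 WT libraries, while Pde3b and Pde4d separate conventional from regulatory libraries.

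The first comparison set KO against WT conventional libraries. Pde4a and Pde5a were higher in KO and Pde4b was lower, a direction that turned to 0.27 (adjusted p = 0.261) under a scaling to 6 T cell genes described further on. Thus 3 of 8 members were called (edgeR's quasi-likelihood test, adjusted p under 0.05 over all genes tested), where 48.6% of all genes tested were called. Higher were 2 members against 23.2% of all genes, and lower was 1 against 25.5%, so the count does not set the members apart. The log2 fold change was 2.45 for Pde4a (SE 0.28, adjusted p = 3.95e-05), a 5.47-fold difference. For Pde5a it was 2.16 (SE 0.19, adjusted p = 9.62e-06), a 4.46-fold difference, and for Pde4b it was -0.32 (SE 0.06, adjusted p = 0.00168). The members' median was 0.03, against -0.05 over all genes tested.

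The other members were not called in conventional cells. The log2 fold change of Pde1b was -0.37 (SE 0.15, adjusted p = 0.0668) and that of Pde3b was -0.37 (SE 0.16, adjusted p = 0.0870). Both genes were called with a term for the class of each library (Xist, Y-linked or both kinds of reads), below called the sex term. Pde1b was then at -0.37 (adjusted p = 0.0032) and Pde3b at -0.37 (adjusted p = 0.00141), which made 5 members. Calls over all genes tested rose as well with this term, from 7743 to 8619. Pde4d, Pde7a, Pde8a and the Gm45837 row had log2 fold changes between -0.06 and 0.13, with adjusted p from 0.345 upwards.

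Transcripts of other cells moved in the same comparison. Of 13 neutrophil markers 11 were higher in KO conventional libraries (summed level 364 to 729 CPM against 8.90 to 16.2), as were 15 of 15 macrophage and monocyte markers (2242 to 4681 against 531 to 772), 11 of 11 NK cell markers (458 to 824 against 86.5 to 122) and 11 of 12 B cell markers. No marker of these 4 lists was at 0 in every WT conventional library. Of 14 effector T cell markers 14 were higher, and of 10 naive T cell markers 10 were lower. Of 10 regulatory T cell markers 7 were higher and 1 lower in KO conventional libraries, and their sums given above did not overlap between the genotypes. Of 10 general T cell markers 8 were lower (4123 to 4897 CPM against 6570 to 7244). Markers of gamma delta T cells (6 of 6), plasma cells (6 of 6), dendritic cells (11 of 12) and mast cells and basophils (8 of 8) were higher as well. Of 8 erythroid markers 6 were higher, and of 8 platelet markers 4, the latter with overlapping sums (301 to 376 CPM against 275 to 326). Their part in the differences of Pde4a, Pde5a and Pde4b was not tested.

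In regulatory T cells, Pde5a was the only member called between genotypes. Its log2 fold change was 1.14 (SE 0.19, adjusted p = 0.00561), a 2.21-fold difference. Every KO library lay above every WT library, which held for 13.2% of all genes tested. The call of Pde5a is 1 of 8 members, where 7.77% of all genes tested were called, 4% higher and 3.77% lower. The log2 fold change of Pde4a was 0.56 (SE 0.24, adjusted p = 0.168), and without WT regulatory replicate 3 it was called at 0.82 (adjusted p = 0.045). With the sex term 4 members were called, namely Pde5a, Pde4a at 0.57 (adjusted p = 0.0236), Pde3b at 0.30 (adjusted p = 0.0292) and Pde1b at -0.31 (adjusted p = 0.0325). Calls over all genes tested rose as well with this term, from 1237 to 2740. No regulatory library held Xist reads alone. Within regulatory cells the term therefore compared no sexes and set apart only WT replicate 3 and KO replicate 1, which held both. Pde4b (0.04), Pde4d (0.15), Pde7a (-0.13), Pde8a (0.25) and the Gm45837 row (-0.22) were not called in either fit.

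Sums of B cell markers overlapped between the regulatory groups (4123 to 5710 CPM in WT, 4490 to 5552 in KO), as did those of macrophage and monocyte markers (1681 to 2102 and 1784 to 3408 CPM). Of 13 neutrophil markers 2 were higher in KO (summed level 128 to 310 CPM against 64.6 to 122), and of 8 mast cell and basophil markers 4 (53.7 to 66.5 against 15.8 to 24.9). Stroma and endothelium markers were higher in 6 of 12 cases, with overlapping sums. Sums were also higher in KO without overlap for NK cell markers (136 to 144 CPM against 78.7 to 132) and platelet markers (113 to 123 against 73.7 to 88.7). They were lower without overlap for plasma cell (670 to 1939 against 2278 to 8896), naive T cell (2839 to 3203 against 3457 to 3824) and CD8 T cell markers (33.1 to 38.5 against 43.5 to 57.7). Of 8 platelet and 6 plasma cell markers 0 were called. Their part in the difference of Pde5a was not tested.

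Whether KO differed from WT by unlike amounts in the 2 cell types was tested as the difference of the log2 fold changes, regulatory minus conventional. It was -1.89 for Pde4a (SE 0.36, adjusted p = 0.00443), -1.01 for Pde5a (SE 0.26, adjusted p = 0.0188) and 0.36 for Pde4b (SE 0.09, adjusted p = 0.0164). These were 3 of 8 members, where 21.2% of all genes tested were called, 9.03% with a positive and 12.2% with a negative difference. The log2 fold changes of Pde4a and Pde5a were thus smaller in regulatory cells, and those of Pde4b were -0.32 in conventional and 0.04 in regulatory cells. Pde3b, at 0.68 (SE 0.24, adjusted p = 0.0659), was not called, but it was with DESeq2 (0.67, adjusted p = 0.0140), with the sex term (0.67, adjusted p = 0.00141), without the 2 libraries that hold both Xist and Y-linked reads (0.74, adjusted p = 0.0315), without WT regulatory replicate 2 (0.82, adjusted p = 0.0418) and without KO regulatory replicate 1 (0.84, adjusted p = 0.0143). Not called were Pde1b (0.06), Pde4d (0.02), Pde7a (-0.25) and Pde8a (0.31), of which Pde7a was called without WT regulatory replicate 1 (-0.35, adjusted p = 0.0481). The call of Pde5a was lost without WT conventional replicate 2 (adjusted p = 0.0522) and without the 2 libraries that hold both Xist and Y-linked reads (-0.78, adjusted p = 0.0607), and that of Pde4b without KO regulatory replicate 2 (0.28, adjusted p = 0.106) and with the stricter filter on low counts (0.26, adjusted p = 0.0704). With the scaling to 6 T cell genes none of the 3 was called, and calls over all genes tested went from 3373 to 862.

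Between the cell types in WT animals, 7 of 8 members were called, where 72.3% of all genes tested were called. Of the members 2 were higher and 5 lower in regulatory cells, against 39% and 33.3% of all genes. Pde3b was lowest in regulatory relative to conventional cells, its log2 fold change being -3.24 (SE 0.18, adjusted p = 1.20e-07). Pde4d followed with -1.69 (SE 0.11, adjusted p = 1.35e-07), then Pde1b with -0.88 (SE 0.16, adjusted p = 0.000372). Pde4b (-0.61, SE 0.06) and Pde7a (-0.47, SE 0.10) were also lower, directions that turned to 0.04 and 0.20 with libraries scaled to 6 T cell genes. Higher in regulatory cells were Pde4a, by 3.35 (SE 0.28, adjusted p = 6.44e-07), and Pde5a, by 0.88 (SE 0.19, adjusted p = 0.00148). Pde8a (0.10) was not called, nor was the Gm45837 row (-0.03). The PDE4 genes thus moved apart, with Pde4a 10.2 times as high and Pde4d at 0.311 of its conventional level.

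In KO animals, 7 of 8 members were again called between the cell types, where 67.6% of all genes tested were called. Again 2 were higher and 5 lower, against 36% and 31.6% of all genes. This comparison and the one in WT share no library, although both share libraries with the comparisons of genotype. The log2 fold change of Pde3b was -2.56 (SE 0.17, adjusted p = 7.08e-07), that of Pde4d -1.66 (SE 0.11, adjusted p = 2.16e-07), that of Pde1b -0.82 (SE 0.16) and that of Pde7a -0.71 (SE 0.10). Pde4b was at -0.26 (SE 0.06, adjusted p = 0.00329), against 0.33 (adjusted p = 0.167) with libraries scaled to 6 T cell genes. Pde4a was higher by 1.45 (SE 0.24, adjusted p = 0.000214). Pde5a was not called (-0.14, SE 0.18). Pde8a was called at 0.41 (SE 0.15, adjusted p = 0.0299), but not without KO conventional replicate 1 or 2 or KO regulatory replicate 1 or 2, where its value reached down to 0.24 (adjusted p up to 0.146). Members called higher went from 2 to 1 also in a fit of only the groups compared and with the sex term. The same held without the 2 libraries that hold both Xist and Y-linked reads.

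Markers of other cells moved alongside: 12 of 12 B cell and 8 of 8 erythroid markers were higher in WT regulatory than in WT conventional libraries, and 12 of 12 and 7 of 8 in KO. T cell markers were lower, in 9 of 10 and 8 of 10 cases. Library measures split the same way. Mitochondrial genes took 5.16 to 8.15% of gene counts in regulatory and 1.44 to 2.33% in conventional libraries. Reads outside annotated genes were 4.98 to 6.87% against 13.3 to 15.7% of each column, and reads mapped to several places 15.8 to 19.5% against 9.25 to 11.1%. Their part in the differences of the members was not tested. Xist and Y-linked reads were uneven too: conventional replicates 1 and 2 of both genotypes held Xist reads alone, and no regulatory library did. Cell type and sex are therefore partly confounded in these comparisons.

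**Figure D2:**
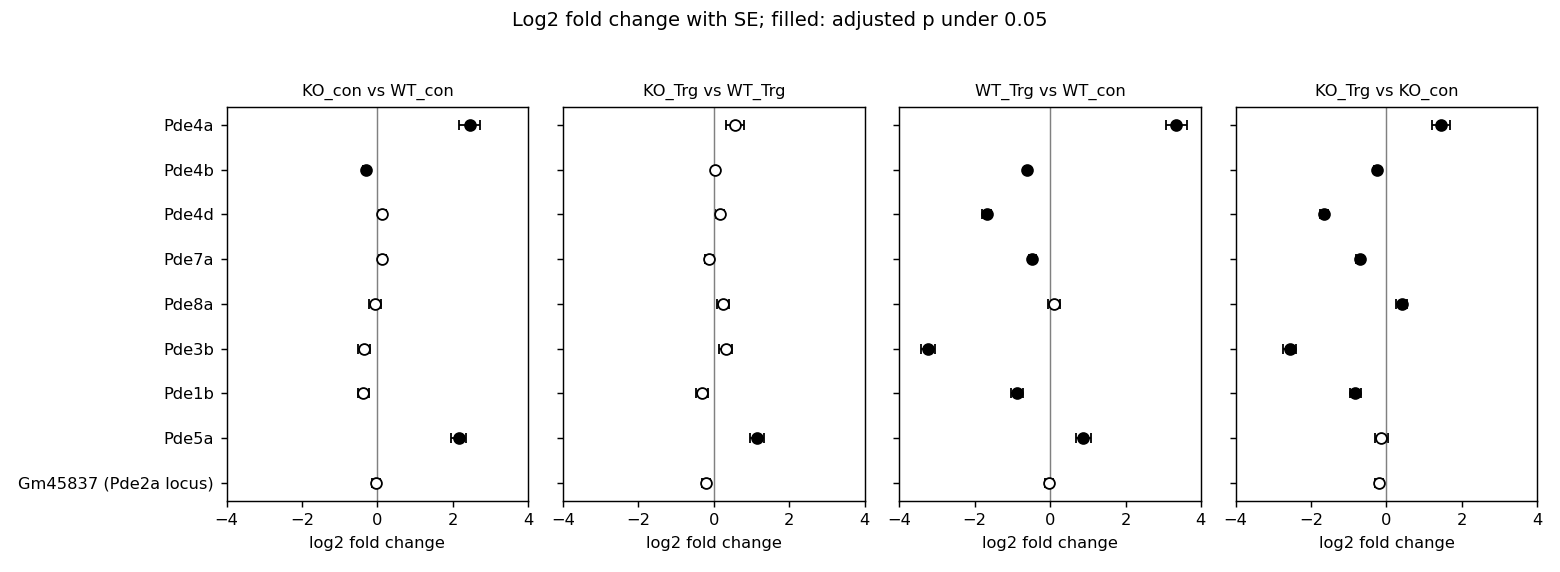
Log2 fold change of each member and of the Gm45837 row (horizontal axes) with its SE in the 4 comparisons of 2 groups; filled points have an adjusted p under 0.05. Pde5a is filled and right of 0 in both comparisons of genotype, and Pde3b and Pde4d are the members farthest left in both comparisons of cell type.

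Because TMM assumes that most genes do not differ, libraries were also scaled to the summed counts of Cd3d, Cd3e, Cd3g, Cd5, Cd6 and Lat, genes of the T cell receptor complex and its signalling. Their sum was 3063 to 3352 CPM in WT conventional, 1949 to 2316 in KO conventional, 1683 to 2323 in WT regulatory and 1083 to 1663 in KO regulatory libraries. Under this scaling the median over all genes became 0.53 in both comparisons of genotype, and 0.71 (WT) and 0.62 (KO) in those of cell type. Pde5a rose by 2.76 (adjusted p = 7.61e-06) in conventional and by 1.63 (adjusted p = 0.00515) in regulatory cells, above that median shift. Pde4a was at 3.05 (adjusted p = 0.000109) in conventional cells. Pde3b remained lower in regulatory cells, at -2.62 (adjusted p = 1.53e-08) in WT and -2.02 (adjusted p = 2.77e-07) in KO, as did Pde4d at -1.06 and -1.08. The differences of genotype effect were -1.96 for Pde4a (adjusted p = 0.0599) and -1.13 for Pde5a (adjusted p = 0.148), neither of them called. For this difference 862 of all genes tested were called, against 3373 with TMM. The calls of Pde1b between cell types were lost, at -0.21 (adjusted p = 0.563) in WT and -0.19 (adjusted p = 0.603) in KO, as was that of Pde7a in KO, at -0.12 (adjusted p = 0.662).

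**Figure D3:**
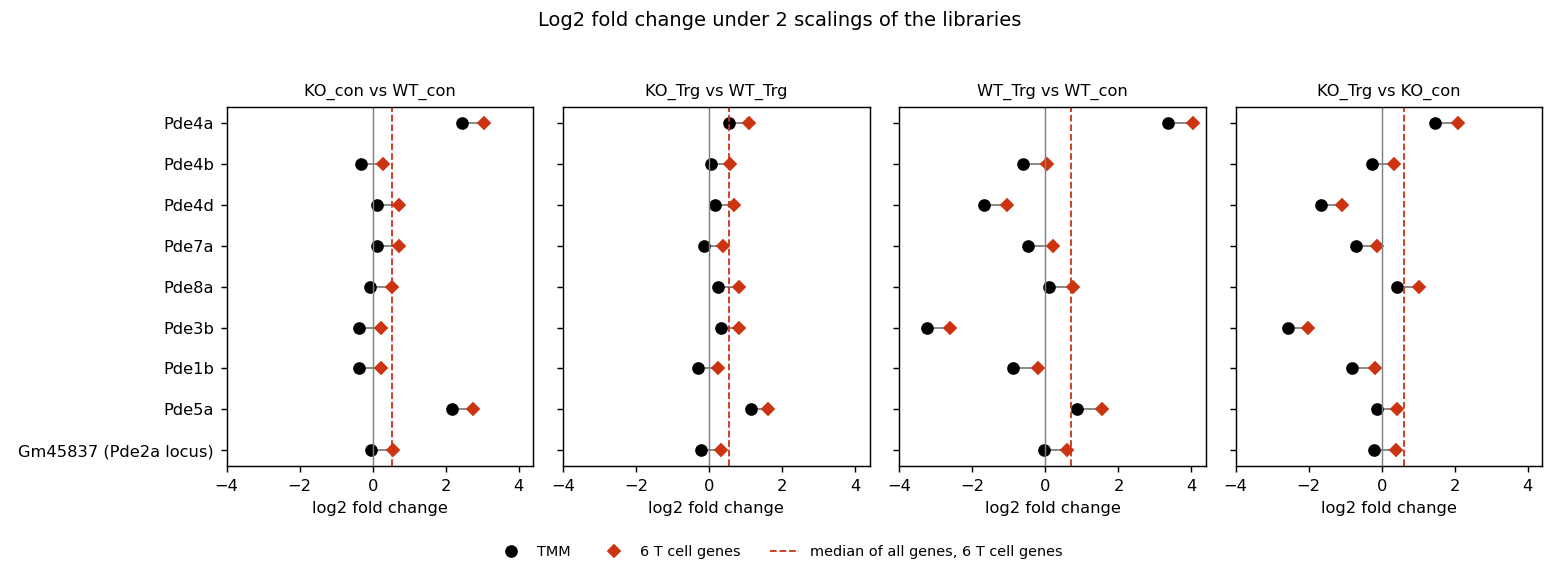
Log2 fold change of each member (horizontal axes) with TMM factors (circles) and with libraries scaled to 6 T cell genes (diamonds), with the median of all genes under the second scaling dashed. Every diamond lies to the right of its circle, by about the shift of the median, and Pde4b changes sign in 3 of the 4 comparisons.

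Levels of different genes were compared per kb of annotated exon, as a share of the sum over all 24 phosphodiesterase rows (8 members, the Gm45837 row and 15 others). The summed level was 134 ± 8.73 CPM per kb in WT conventional, 125 ± 6.41 in KO conventional, 89.1 ± 2.81 in WT regulatory and 89.4 ± 2.60 in KO regulatory libraries (SD, n = 3). The Gm45837 row at the Pde2a locus held the largest share, 27.5 ± 3.14% in WT conventional and 41.0 ± 3.23% in WT regulatory cells (SD, n = 3). Pde3b came next in WT conventional cells with 24.5 ± 1.14% and held 3.90 ± 0.54% in WT regulatory cells (SD, n = 3). Pde7a held 13.8% and 14.9% there, and Pde4b 11.6% and 11.5%, while the summed level was 134 and 89.1 CPM per kb. The share of the Gm45837 row rests on its exon length in GENCODE M21, which may not be the gene model counted. Without division by length, Pde3b and Pde4b both held larger shares than this row in WT conventional cells.

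Pde4a, Pde4b and Pde4d together held between 15.4 and 16.9% of the summed level per kb in the 4 groups, and the cAMP-specific members between 33.6 and 36.0%. The share of Pde4a was 0.101% in WT conventional, 0.599% in KO conventional, 1.55% in WT regulatory and 2.27% in KO regulatory cells. The 2 members that were higher in KO conventional cells therefore remained small parts of the sum there, Pde5a at 0.681%. The 15 other phosphodiesterase genes held 7.82% in WT conventional and 18.9% in KO regulatory cells, most of it Pde6d, at 6.37% and 16.8%. Pde6d encodes a chaperone of prenylated proteins and is not catalytic. Shares of messenger RNA per kb say nothing of enzyme amount or activity.

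**Figure D4:**
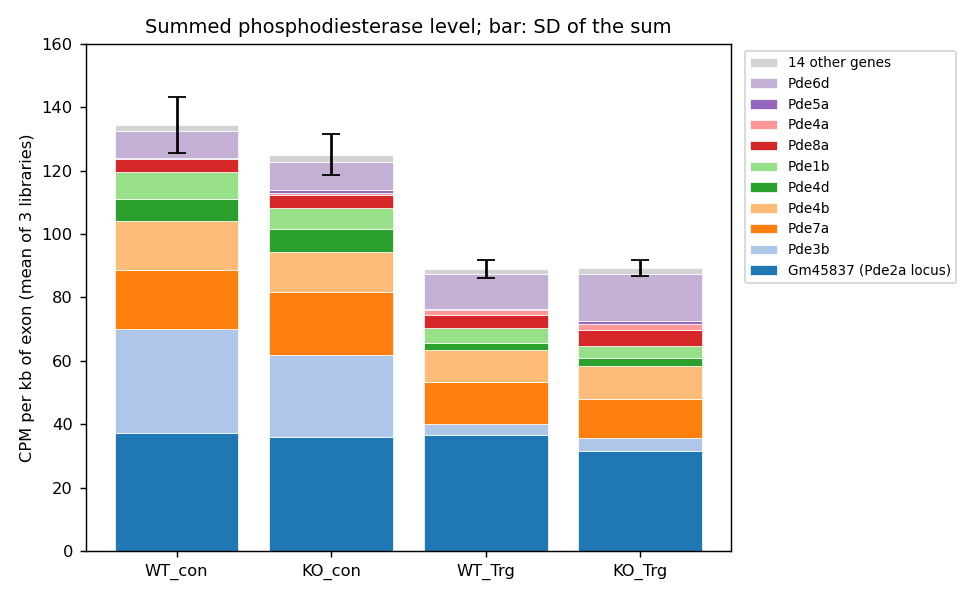
Stacked group means of CPM per kb of exon (vertical axis) for the 24 phosphodiesterase rows, with the SD of the sum over 3 libraries. The sum is 134 and 125 in conventional and 89.1 and 89.4 in regulatory groups, and the Pde3b segment is the one that shrinks most.

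Of 15 other phosphodiesterase genes 10 passed the filter on low counts, and Pde6b and Pde6c had 0 counts in all 12 libraries. In KO conventional cells 5 were called, all higher, namely Pde7b, Pde1c, Pde8b, Pde10a and Pde3a, and in KO regulatory cells 3 were called, all higher (Pde7b, Pde3a and Pde6d). Over all genes tested, 23.2% were called higher in KO conventional and 4% in KO regulatory cells. With the T cell gene scaling the counts were 7 and 4, all higher, where 7061 and 5194 of the 15922 genes tested were called in either direction. Pde7b, the second PDE7 gene, was at 0.269, 0.228 and 0.192 CPM in WT conventional and at 3.22, 1.95 and 2.43 CPM in KO conventional libraries. The WT regulatory ones had 0.975, 0.905 and 1.22 CPM, and the KO regulatory ones 3.50, 3.93 and 3.53 CPM. All KO libraries lay above all WT libraries, as for Pde5a, and the log2 fold changes were 3.44 (SE 0.28, adjusted p = 4.79e-06) and 1.81 (SE 0.24, adjusted p = 0.00205). Pde7a, its paralog, was called in neither comparison.

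Pde6d lay at 17.7 to 20.2 CPM in conventional, 23.6 to 24.9 in WT regulatory and 30.7 to 36.0 CPM in KO regulatory libraries. Its log2 fold change between regulatory genotypes was 0.44 (SE 0.08, adjusted p = 0.00825). Apart from Pde6d, the remaining genes of this set were scarce. Pde3a, Pde1c, Pde8b and Pde10a stayed below 2 CPM in every library, and Pde1c rested on 4 counts over the 3 WT conventional libraries against 48 in KO. Pde4c, the fourth PDE4 gene, was at 0.880 to 1.54 CPM in WT conventional and 2.23 to 3.42 CPM in WT regulatory libraries, and its log2 fold change between them was 1.16 (SE 0.26, adjusted p = 0.00159). Pde11a, a dual enzyme gene, was lower in WT regulatory cells (log2 fold change -0.89, SE 0.25, adjusted p = 0.00652), a call lost with the T cell gene scaling (-0.29, adjusted p = 0.357). Pde6g and Pde9a differed between genotypes in neither cell type by a called amount (adjusted p from 0.0686 upwards).

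Of 32 listed genes for cAMP synthesis and effectors 29 were tested, of which 6 were higher and 10 lower in KO conventional and 1 higher and 3 lower in KO regulatory cells. Over all genes tested, 23.2% were higher and 25.5% lower in KO conventional, and 4% higher and 3.77% lower in KO regulatory cells, the background for the TMM counts of this and the following lists. This split turned with the scaling to 6 T cell genes, which gave 12 higher and 0 lower in KO conventional and 10 higher and 0 lower in KO regulatory cells. Under that scaling 7061 and 5194 of the 15922 genes tested were called in either direction. The median over all genes was then 0.53 in both comparisons, so the TMM shares are no background for these counts. Pkig and Pkib, which encode inhibitors of protein kinase A, rose in KO conventional cells by 2.10 (adjusted p = 4.84e-05) and 1.22 (adjusted p = 0.000525), and Prkar2b, a regulatory subunit, by 1.31. Pkig was at 1.31 to 1.95 CPM in WT conventional, 5.32 to 8.45 in KO conventional and 57.1 to 85.6 CPM in all regulatory libraries, an order of groups like that of Pde4a. Between cell types in WT, Adcy7, an adenylyl cyclase of blood cells, was lower in regulatory cells (log2 fold change -1.42, SE 0.07, adjusted p = 8.10e-09).

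Receptors that raise cAMP were called in 10 of 13 tested cases in KO conventional cells, 8 higher and 2 lower, and in 2 of 13 in KO regulatory cells, where 48.6% and 7.77% of all genes tested were called. With the T cell gene scaling 10 were higher and 0 lower in KO conventional, and 6 higher and 1 lower in KO regulatory cells. Of all 15922 genes tested, 7061 and 5194 were called under that scaling. The 2 called in regulatory cells with TMM were both receptors for vasoactive intestinal peptide. Vipr2 was at 0.325, 0.840 and 0.838 CPM in WT regulatory and 6.06, 5.90 and 7.35 CPM in KO regulatory libraries, a difference of 3.21 in log2 (SE 0.31, adjusted p = 0.00055). Vipr1 fell to 3.63, 2.51 and 2.74 CPM in KO regulatory from 8.34, 10.1 and 6.38 CPM in WT regulatory libraries (-1.48, SE 0.19, adjusted p = 0.00303), and it also fell in KO conventional cells (-1.12, SE 0.14, adjusted p = 0.00015), the latter not called with the T cell gene scaling (-0.54, adjusted p = 0.0587). Ptger2, a prostaglandin E2 receptor, rose in KO conventional cells by 1.64 (SE 0.21, adjusted p = 0.00014) and had no called change in KO regulatory ones.

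On the cGMP side, 8 of 14 listed genes for synthesis and effectors were tested. Of these 4 were called in KO conventional cells, each of them higher, and 0 in KO regulatory cells by edgeR's test with TMM, where Gucy1b1 and Npr1 had an unadjusted p under 0.05. Over all genes tested 48.6% and 7.77% were called in either direction, and 23.2% were called higher in KO conventional cells. With 8 genes and no set test, these counts do not set the list apart. In KO regulatory cells the T cell gene scaling called 2 higher, Gucy1a1 and Gucy1b1, and 5194 of the 15922 genes tested. Gucy1a1 and Gucy1b1, the subunits of the nitric oxide receptor guanylyl cyclase, rose in KO conventional cells by 0.86 (adjusted p = 0.00177) and 0.52 (adjusted p = 0.0251). In regulatory cells Gucy1b1 had the smallest p of the 8, with a log2 fold change of 0.56 (adjusted p = 0.074). Of 14 anchoring partners of phosphodiesterases, which hold them near receptors and kinases, 3 were higher and 6 lower in KO conventional and 1 higher and 1 lower in KO regulatory cells (all genes: 23.2% and 25.5%, and 4% and 3.77%). The latter were Akap5 (1.63, adjusted p = 0.0053) and Akap8 (-0.34, adjusted p = 0.0116), both A-kinase anchoring protein genes, and Arrb2, a beta-arrestin that brings PDE4 to receptors, fell in KO conventional cells (-0.50, adjusted p = 6.74e-05). With the T cell gene scaling Akap8 (0.18, adjusted p = 0.400) and Arrb2 (0.09, adjusted p = 0.666) turned sign, and the anchoring partners called were 6 higher and 0 lower in KO conventional and 7 higher and 0 lower in KO regulatory cells. This scaling called 7061 and 5194 of the 15922 genes tested in the same comparisons.

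As a description over the 12 libraries, which share the split into cell types and the scaling, log2 CPM of Pde3b and Pde4d had a Pearson r of 0.978, and that of Pde4a and Pde4b one of -0.920. Among genes with a mean of at least 10 CPM, Sema4f and Hcfc2 were most like Pde3b (r = 0.996 and 0.995), and Gramd3 was most like Pde4d (r = 0.994). Zfp516 was most like Pde4a (r = 0.992), and Cdk6 and Osbpl5 were most like Pde5a (r = 0.970 and 0.962). The highest r was 0.987 for Pde4b (with Bcl9), 0.966 for Pde7a (with Ccdc167) and 0.919 for Pde8a (with Mprip).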

How the data were processed

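Reads were mapped with STAR (version 1.7.20 as written there) to GRCm38, per the submitters' processing notes, and the authors deposited a table of raw counts, 1 row per Ensembl gene and 1 column per library (12 in all), counted on the reverse strand per the table's name; the annotation release is not given in the sources used here. Libraries held 19686870 to 33404302 gene counts; 4 tallies of reads given to no gene (26.2 to 30.5% of each column) were left out. Symbols and exon lengths come from GENCODE M21. All libraries entered 1 fit in edgeR 4.0.16 (R 4.3.3) with a term per group, TMM factors, filterByExpr (minimum count 10, minimum total 15), the robust quasi-likelihood F test, two-sided, and Benjamini-Hochberg adjustment over 15922 genes. SEs were derived as log2 fold change over the square root of F. Alternatives were RLE, upper-quartile and T cell gene scaling, DESeq2 1.42.0, limma-voom (limma 3.58.1), 2 other filters, only the groups compared, a replicate block, a sex term and left-out libraries. Counts of the pathway lists under the 3 other scalings were added after seeing the data. The procedure was tested on simulated data. Members, gene lists and tests were chosen with earlier results of these data known. Named genes are the members, other phosphodiesterases past the filter, up to 4 genes per pathway list with the smallest p in a comparison, and the 2 genes most like each member; the text gives a part of these, and the gene most like Pde1b is not reported here. Figures were drawn with matplotlib 3.10.9.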

Additional observations from a re-analysis of the deposited data

Results flagged for a closer look

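For 3 members the log2 fold change of KO against WT differed between regulatory and conventional libraries by the test of that difference (edgeR's quasi-likelihood test, regulatory minus conventional). For Pde4a it was -1.89 (adjusted p = 0.00443), with KO above WT in every conventional library and overlapping groups in regulatory cells. For Pde5a it was -1.01 (adjusted p = 0.0188), with KO above WT in every library of both cell types. For Pde4b it was 0.36 (adjusted p = 0.0164), with KO below WT in every conventional library and overlapping groups in regulatory cells. Over all genes tested, KO and WT did not overlap for 63.6% in conventional and 26.2% in regulatory cells. In WT cells, Pde4a and Pde5a were also higher, and Pde4b lower, in regulatory than in conventional libraries (the last not under the scaling to 6 T cell genes). With the scaling to 6 T cell genes none of the 3 differences was called (adjusted p = 0.0599, 0.148 and 0.872 for Pde4a, Pde5a and Pde4b). Calls of this difference over all genes tested went from 3373 to 862 under that scaling. The values for Pde4a and Pde5a, given above, were no smaller in size. That of Pde5a was also lost without WT conventional replicate 2 (adjusted p = 0.0522) and without the 2 libraries that hold both Xist and Y-linked reads (adjusted p = 0.0607), and that of Pde4b without KO regulatory replicate 2 (adjusted p = 0.106) and with the stricter filter (adjusted p = 0.0704).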

How the results depend on the processing

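Whether replicate numbers pair the libraries could not be decided, since deviations from means of 3 libraries hold little information. Correlations of same-numbered deviations ran from -0.518 to 0.176. In WT conventional with WT regulatory cells, and between regulatory genotypes, no library correlated best with its own number. Replicates 1 and 2 did so in KO conventional with KO regulatory cells, and replicate 3 between conventional genotypes. With the replicate block the members called stayed at 3, 1, 7, 7 and 3, while genes called between regulatory genotypes went from 1237 to 868. RLE, upper-quartile factors, DESeq2, limma-voom and both other filters kept every count of members called within 1.5 times of that reported. Within these counts, the stricter filter lost the difference of effects of Pde4b and the call of Pde8a between cell types in KO (adjusted p = 0.0623), DESeq2 gained Pde3b in the difference of effects and between conventional genotypes (adjusted p = 0.0441), and limma-voom gained Pde1b between conventional genotypes (adjusted p = 0.0273). Only the groups compared gave 369 genes called between regulatory genotypes, but Pde5a still; this setting has no value for the difference of effects. Scaling to 6 T cell genes called 6 members between regulatory genotypes, 4 between cell types in KO and 0 for the difference of effects (adjusted p from 0.0599 for Pde4a). Of all genes tested, this scaling called 5194, 9340 and 862 in these comparisons, against 1237, 10770 and 3373 with TMM. The sex term called 5 members in conventional and 4 in regulatory genotypes. It called 8619 and 2740 of all genes tested there, against 7743 and 1237 without it. Within regulatory cells it set apart only the 2 libraries holding both Xist and Y-linked reads. Leaving out these 2 libraries called 5 members in conventional cells, where 8466 of 16082 genes tested were called. Leaving out single libraries gave 1 to 2 members between regulatory genotypes, where 487 to 1965 of all genes tested were called.

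Signs turned as follows. With T cell gene scaling, KO against WT in conventional cells was 0.22 for Pde1b, 0.21 for Pde3b, 0.27 for Pde4b, 0.53 for Pde8a and 0.54 for Gm45837; in regulatory cells it was 0.23 for Pde1b, 0.39 for Pde7a and 0.34 for Gm45837. Regulatory against conventional in WT was 0.038 for Pde4b, 0.20 for Pde7a and 0.60 for Gm45837, and in KO 0.33 for Pde4b, 0.42 for Pde5a and 0.39 for Gm45837; the difference of effects of Pde4d was -0.019. All other turns were of values not called. In conventional genotypes, Pde8a was 0.0032, 0.057 and 0.015 and Gm45837 0.022, 0.075 and 0.033 with upper-quartile factors, the stricter filter and only the groups compared. In WT cell types, Gm45837 was 0.0037, 0.026 and 0.014 under the same settings, 0.11 with the sex term and 0.037 without those 2 libraries. The difference of effects of Pde4d was -0.027, -0.068 and -0.054 with upper-quartile factors, the stricter filter and without those 2 libraries, and that of Pde1b was -0.040 with the stricter filter. With single libraries left out, the ranges were -0.18 to 0.069 (Gm45837) and -0.16 to 0.057 (Pde8a) in conventional genotypes, -0.16 to 0.085 (Gm45837) and -0.0038 to 0.22 (Pde8a) in WT cell types, and -0.11 to 0.23 (Pde1b) and -0.086 to 0.092 (Pde4d) for the difference of effects. The cause of these turns was not tested.

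Without division by length, shares in WT conventional, KO conventional, WT regulatory and KO regulatory cells were 32.0, 27.1, 6.21 and 7.70% for Pde3b, 17.6, 15.4, 21.1 and 21.6% for Pde4b, and 16.4, 17.5, 29.7 and 25.3% for Gm45837; Pde7a moved to 18.1, 20.1 and 18.4% in the last 3. Low counts limit Pde4a and Pde5a in WT conventional cells, at 95 and 172 counts over 3 libraries.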
